A study of Mus musculus with 11 samples.

Results

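The cytochrome P450 genes of the main olfactory epithelium (MOE) were examined by RNA-seq in mice with and without the olfactory Taar gene cluster. Their members were taken by name, as every symbol made of Cyp, a number and a letter in the table of raw counts, without symbols ending in -ps. The rule found 100 of 24421 entries, of which 98 matched a gene of the GENCODE annotation and 1, Cyp4x1os, is an antisense RNA. Cyp51 has no letter after its number and was not a member, and 4 pseudogene symbols were left out. The libraries came from whole MOE tissue of mice labelled as C57BL/6 at postnatal day 1 to 2. The Taar2 to Taar9 cluster was intact on both chromosomes in the wild type mice (WT, n = 3), deleted from 1 chromosome in the heterozygous mice (het, n = 4) and deleted from both in the homozygous mice (homo, n = 4). No other allele or agent is named for any group. The study also describes mice of this line as older, of a mixed background and of both sexes, and which age applies was not settled. The labels give no sex, litter or date per library, and nothing states that the libraries of a genotype came from separate mice, so a p-value measures only the spread between these libraries.

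Cytochrome P450 enzymes carry a heme and add an oxygen atom to a lipophilic substrate, with electrons passed on from the reductase Por or, in mitochondria, from ferredoxin. Some have a fixed task in the metabolism of steroids, bile acids, retinoic acid, vitamin D or fatty acids. Others, mostly of the Cyp1, Cyp2 and Cyp3 families, oxidise foreign compounds. Olfactory tissue is known for a high content of such enzymes, which reside mainly in sustentacular cells and Bowman's glands and act on inhaled chemicals and on odorants. Cyp2g1 is expressed almost exclusively in olfactory tissue and is used as a marker of sustentacular cells.

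The summed level of 14 Taar entries of the deleted cluster was 6.98 to 9.61 CPM in wild type, 3.32 to 6.98 CPM in heterozygous and 0.0841 to 0.258 CPM in homozygous libraries. CPM is the count of a gene relative to the total count of its library after TMM scaling, which assumes that most genes do not differ between libraries. The libraries held 9239866 to 14632525 counts. Homozygous replicate 2 stood apart, since Rn45s, the precursor of ribosomal RNA, took 25.8% of its counts, against 0.0848% to 0.786% in the other 10 libraries. Its TMM factor was 0.756, against 1.01 to 1.06 in the others, and 0.986 when Rn45s was left out. A principal component analysis of all tested genes split them along its leading axis (41.6% of the variance) into 2 sets, each with all 3 genotypes. Homozygous replicates 1 and 2, wild type replicates 1 and 2 and heterozygous replicates 3 and 4 made up set 1, and the other 5 libraries set 2. Xist, the RNA of the inactive X chromosome, was at 1327 to 4297 CPM in all 3 wild type libraries, at 1684 CPM in heterozygous replicate 3, at 1389 CPM in homozygous replicate 1 and at no more than 1.70 CPM in the other 6. The summed level of 6 skeletal muscle markers was 1469 CPM in heterozygous replicate 4, 687 CPM in homozygous replicate 3, 494 CPM in heterozygous replicate 2, 370 CPM in homozygous replicate 2 and no more than 107 CPM in the other 7 libraries.

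Cyp2a5 and Cyp2a4 lie in the same gene cluster and are almost the same in sequence, so their sequences decide how far their counts can be told apart. The stretch of exon 2 from coding position 199 to 258 was chosen for its differences. Of the stretches of 60 coding bases searched within single exons, none held more than its 3. Reads within it can separate the pair only through these bases, and the coding sequence as a whole differs less. Capitals mark the bases at which the pair differs. The sequences are those of the reference genome (GRCm38, plus strand), from chr7:26835813-26835872 for Cyp2a5 and chr7:26307668-26307727 for Cyp2a4.
Cyp2a5: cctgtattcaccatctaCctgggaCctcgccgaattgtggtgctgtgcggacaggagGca
Cyp2a4: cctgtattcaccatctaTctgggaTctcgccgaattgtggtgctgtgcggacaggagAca
Over the 1485 coding bases the pair differed at 23, an identity of 98.5%. Cyp2a5 and Cyp2g1, compared by a global alignment that allowed gaps and not position by position, were 64.4% identical. Of all 51-base windows of the Cyp2a5 transcript, 60.01% occurred in no other transcript, against 62.9% for Cyp2a4, 94.3% for Cyp2g1 and 100% for Cyp2f2. How the authors counted reads with several positions was not stated, so the split of counts between Cyp2a5 and Cyp2a4 is uncertain.

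The promoters of the pair are shown because these sequences were almost the same although Cyp2a5 stood at 886 and Cyp2a4 at 2.76 CPM per kb of exon. They are given from RefSeq (GRCm38.p6, plus strand) at chr7:26835089-26835337 for Cyp2a5 and chr7:26306943-26307191 for Cyp2a4, and capitals mark the differing bases.
Cyp2a5 promoter: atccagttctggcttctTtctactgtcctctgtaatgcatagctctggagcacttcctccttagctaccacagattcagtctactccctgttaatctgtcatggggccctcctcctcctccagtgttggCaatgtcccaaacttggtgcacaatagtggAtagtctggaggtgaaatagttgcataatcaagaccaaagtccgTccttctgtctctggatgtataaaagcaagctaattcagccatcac
Cyp2a4 promoter: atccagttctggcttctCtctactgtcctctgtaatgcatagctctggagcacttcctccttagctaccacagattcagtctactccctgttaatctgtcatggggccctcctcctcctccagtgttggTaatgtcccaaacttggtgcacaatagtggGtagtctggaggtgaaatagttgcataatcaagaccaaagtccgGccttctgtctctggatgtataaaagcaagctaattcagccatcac
The promoters differed at 4 of 249 bases, an identity of 98.4%. A pair of short motifs was searched on both strands after the sequences had been seen. TATAAA, the TATA box, was at position -28 in both promoters, and 13.0% of 27025 promoters of mouse genes held it. Positions are counted back from the end of each printed sequence. That end lies past the gene start in GENCODE, which is 26835305 for Cyp2a5 and 26307169 for Cyp2a4. TTGGCA, a half-site of nuclear factor I proteins, was at position -124 of Cyp2a5 and not in the Cyp2a4 sequence, where 1 of the differing bases falls inside it. It was in 12.5% of all promoters. Of the 77 members with a promoter sequence, 28 held TATAAA and 17 held TTGGCA.

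Cyp2a5, Cyp2g1 and Cyp2f2, which lie in 1 cluster on chromosome 7, dominated the family. Of the 100 members, 72 had at least 1 count in some library, 42 had counts in all 11 and 28 were at 0 throughout. Cyp2a5, which oxidises coumarin and nicotine, stood highest at 886 ± 155 CPM per kb (mean ± SD over 11 libraries), where the CPM were divided by the length of all exons of the gene. Cyp2g1 followed at 386 ± 104 and Cyp2f2, which oxidises naphthalene, at 309 ± 106 CPM per kb. Among 23309 genes with a length these were at ranks 11, 33 and 51. Together they took 82.5% to 86.4% of all P450 counts of a library, and the family took 0.244% to 0.505% of all counts. The lowest of these shares was that of homozygous replicate 2, at 0.329% without Rn45s.

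In single libraries, Cyp2a5 was at 2095, 1390 and 2198 CPM in wild type replicates 1 to 3, at 1705, 1901, 1607 and 1896 CPM in heterozygous replicates 1 to 4, and at 1571, 1408, 2139 and 2304 CPM in homozygous replicates 1 to 4. Cyp2g1 was at 1091, 632 and 1022 CPM in wild type, at 876, 975, 603 and 829 CPM in heterozygous and at 540, 505, 940 and 1102 CPM in homozygous libraries. Cyp2f2 was at 1036, 674 and 464 CPM in wild type, at 422, 427, 435 and 967 CPM in heterozygous and at 553, 757, 600 and 545 CPM in homozygous libraries. The ranges of the 3 genotypes overlapped for each of these genes. Per kb, Cyp2a5 was above Cyp2g1 in 11 of 11 libraries, and their ranges did not overlap (671 to 1112 against 235 to 514 CPM per kb). Cyp2g1 and Cyp2f2 could not be ordered, since Cyp2g1 was higher in 6 of 11 libraries. Cyp2f2 was higher in wild type replicates 1 and 2, heterozygous replicate 4 and homozygous replicates 1 and 2, all of set 1.

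A gap separated these genes from the rest. Cyp2f2 was 9.59-fold above Cyp1a2, the next gene, with no overlap of their ranges. Cyp1a2, a target of the aryl hydrocarbon receptor that oxidises caffeine and aromatic amines, was at 32.2 ± 7.93 CPM per kb. Cyp2j6, of a subfamily that makes epoxides of arachidonic acid, was at 21.3 ± 2.39 CPM per kb. Cyp4v3, which hydroxylates fatty acids at the omega carbon, was at 19.6 ± 2.51 CPM per kb. Cyp1a2 exceeded Cyp2j6 in 11 of 11 libraries although their ranges overlapped, and Cyp2j6 and Cyp4v3 did not differ beyond their spread, since Cyp2j6 was higher in 6 of 11. Cyp4v3 was above the next gene in 11 of 11 libraries, with no overlap of ranges.

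The next 9 genes formed a slope without steps, from Cyp39a1 at 9.37 ± 1.84 to Cyp2b10 at 5.83 ± 3.40 CPM per kb, in which each neighbour overlapped the one before it. In falling order they were Cyp39a1, a hydroxylase of oxysterols in bile acid synthesis, Cyp4f15, which acts on leukotrienes and fatty acids, Cyp20a1, an orphan enzyme of unknown substrate, Cyp2s1, Cyp27a1, the mitochondrial sterol 27-hydroxylase, Cyp26b1, which breaks down retinoic acid, Cyp1a1, a target of the aryl hydrocarbon receptor, Cyp2w1 and Cyp2b10, a target of the nuclear receptor CAR. In a single library, 12 to 14 of the 15 highest genes of the whole series were among its own 15 highest, and Cyp2a5 was first in each.

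**Figure D1:**
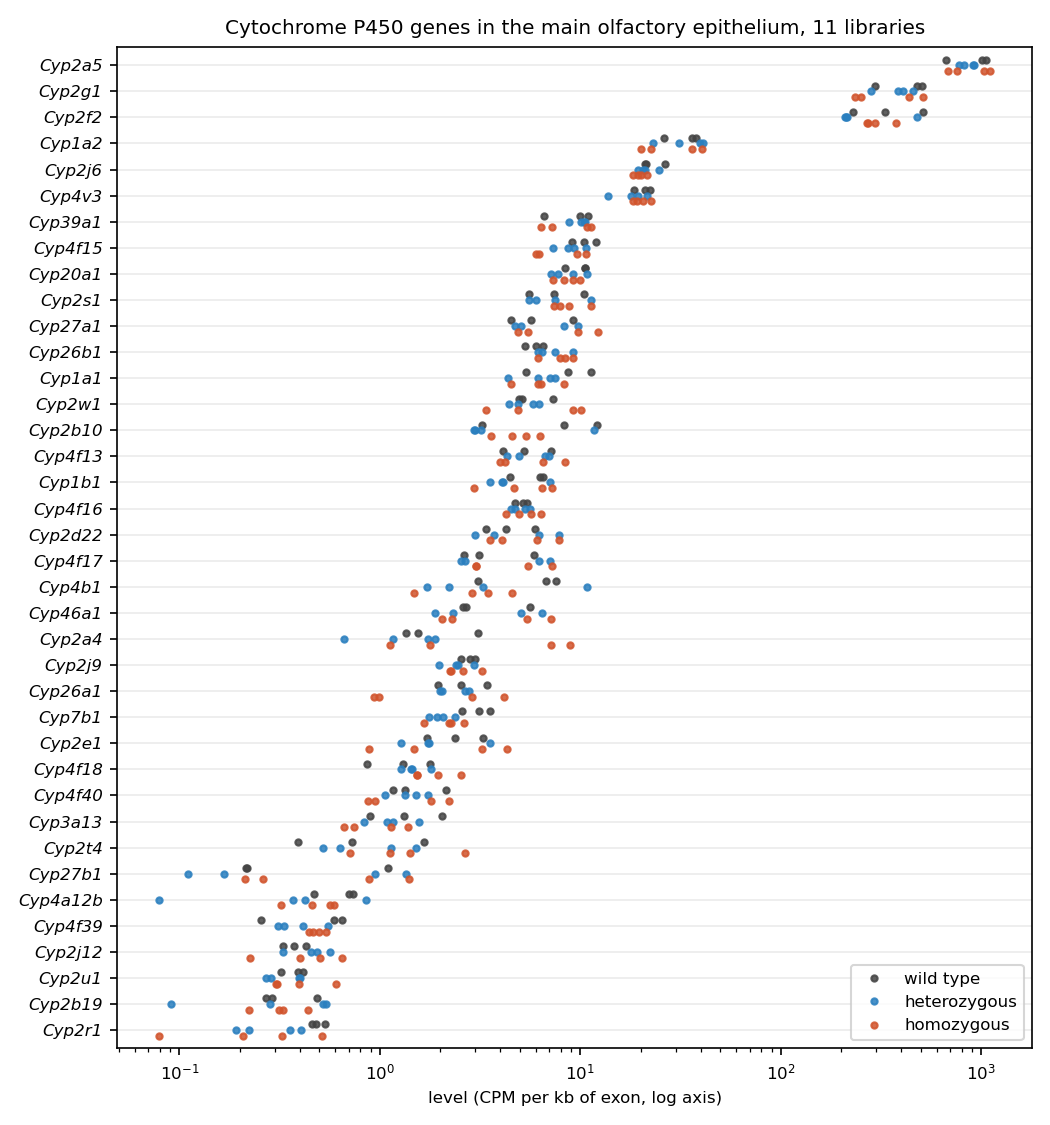
Level of the 38 P450 genes that passed the filter on low counts, in CPM per kb of exon on a log axis, 1 point per library and colour by genotype (3 wild type, 4 heterozygous, 4 homozygous). Cyp2a5, Cyp2g1 and Cyp2f2 stand apart at 208 to 1112 CPM per kb, and the genotypes overlap in nearly every row.

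Roles were assigned from gene families or names, not from these data. The Cyp1, Cyp2 and Cyp3 families, without Cyp2r1, made a group of foreign compound metabolism with 60 members, although it includes the Cyp2j genes. The other members fell into smaller groups, mostly with fixed substrates. In the group of 60, 38 had a count, and 22 were at 0 throughout, among them Cyp3a11, the main Cyp3a enzyme of liver, and Cyp2c29. Of 20 Cyp4 genes of fatty acid metabolism 16 had a count, with Cyp4v3 highest. All 6 genes of bile acid and oxysterol metabolism had a count, with Cyp39a1 highest, but Cyp7a1, the rate-limiting enzyme of bile acid synthesis in liver, had 2 counts in all libraries together and Cyp8b1 had 3. Of the genes that break down retinoic acid, Cyp26b1 was at 7.15 ± 1.34, Cyp26a1 at 2.40 ± 0.961 and Cyp26c1 at 0.186 ± 0.183 CPM per kb.

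Vitamin D enzymes were low. Cyp27b1, which makes the active hormone, was at 0.624 ± 0.513 CPM per kb, Cyp2r1, the 25-hydroxylase, at 0.343 ± 0.151, and Cyp24a1, which inactivates the hormone, at 0.0231 ± 0.0269 CPM per kb. Of 6 enzymes of steroid hormone synthesis 0 passed the filter. Cyp17a1, the highest, was at 0.186 ± 0.110 and Cyp11a1, which starts the synthesis from cholesterol, at 0.114 ± 0.0434 CPM per kb, whereas Cyp11b1 and Cyp11b2 were at 0 counts in 11 libraries. A count of 0 in a library allows up to 3 counts, for counting error only.

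Among the partner genes, Por, the electron donor of all microsomal P450 enzymes, was at 465 to 656 CPM and Cyb5a, cytochrome b5, at 177 to 282 CPM. The mitochondrial partners were lower, with Fdx1 at 18.4 to 33.4, Fdxr at 9.67 to 18.2 and Fdx1l at 1.01 to 3.70 CPM. Alas1, the first enzyme of heme synthesis, was at 106 to 151 CPM. Of the receptors that induce P450 genes, Ahr was at 30.5 to 39.5 CPM, whereas Nr1i3 (CAR) was at 0.505 to 1.49 CPM and Nr1i2 (PXR) at 1.21 to 2.84 CPM. The 6 hepatocyte markers summed to 1.96 to 6.59 CPM, with Alb at no more than 0.214 CPM.

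The cluster on chromosome 7 (mm10, 25802475 to 27158668) holds 13 members from Cyp2s1 to Cyp2t4 and gave 86.1% of the summed CPM of the family. Within it, the level did not follow the position. Cyp2g1 (26808892 to 26821205, plus strand) and Cyp2a5 (26835305 to 26843548, plus strand) start 26.4 kb apart, and Cyp2f2 (27119909 to 27133660, plus strand) starts 311 kb from Cyp2g1. Between and beside them lay genes near 0. Cyp2b13 had 0 counts in 11 libraries, Cyp2b9 had 1 count in all, Cyp2a22 had 7, Cyp2b23 had 11 and Cyp2a12 had 19. Cyp2b19, a gene known from skin that starts at -51.8 kb from the start of Cyp2g1, was at 0.344 ± 0.139 CPM per kb. Cyp2a4 was at 2.76 ± 2.69 and Cyp2t4 at 1.14 ± 0.661 CPM per kb. Of the other clusters, 8 Cyp4f genes on chromosome 17 all had counts and summed to 81.2 CPM, 7 Cyp2j genes on chromosome 4 all had counts and summed to 86.4 CPM, and Cyp1a1, Cyp1a2 and Cyp11a1 on chromosome 9 summed to 84.6 CPM. The Cyp2c and Cyp3a clusters were near 0. Of 14 Cyp2c genes on chromosome 19, 3 had a count, with 31 of their counts in Cyp2c65. Of 8 Cyp3a genes in 1 cluster on chromosome 5, only Cyp3a57 had counts, 5 in all, whereas Cyp3a13, which lies apart on the same chromosome, was at 1.17 ± 0.405 CPM per kb. Some of these genes are near-identical copies, with 1.49% of 51-base windows unique to Cyp3a41a, 6.60% to Cyp3a41b and 28.5% to Cyp2c40, so whether their 0 counts depend on how reads with several positions were counted was not tested.

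**Figure D2:**
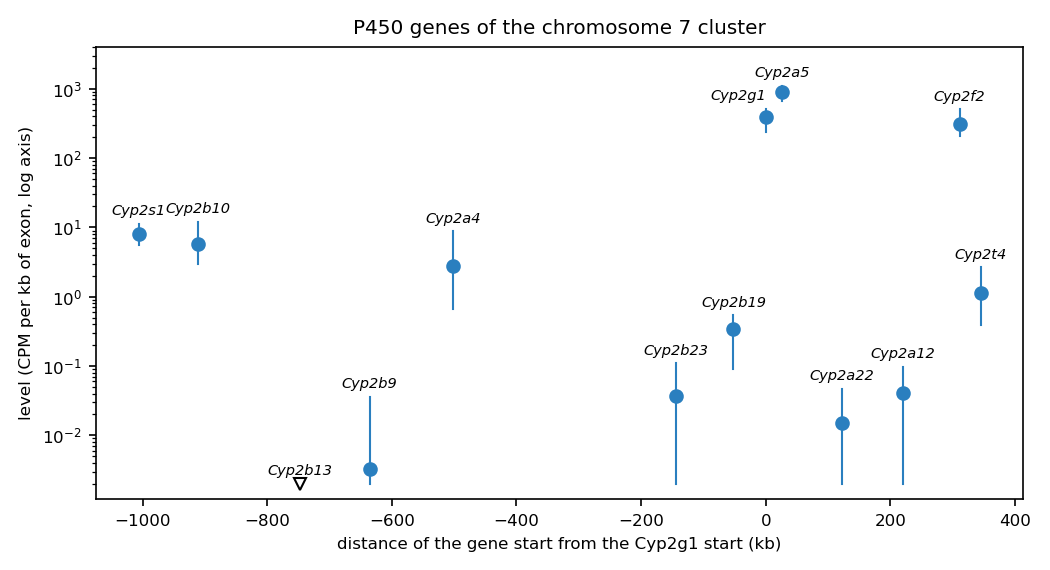
Level of the 13 P450 genes of the chromosome 7 cluster (CPM per kb of exon, log axis, mean over 11 libraries as a point and lowest to highest library as a line) against the distance of the gene start from the Cyp2g1 start in kb. Lines that reach 0.002 go down to a library at 0, and the open triangle is Cyp2b13 at 0 in all libraries. Cyp2g1, Cyp2a5 and Cyp2f2 are over 200 CPM per kb in each library, and genes beside them are near 0.

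To find whether P450 genes changed with the loss of the Taar cluster, the genotypes were compared over all genes that passed the filter. Of the 100 members, 38 passed it. In the first comparison 0 of 38 had an adjusted p under 0.05 with edgeR's quasi-likelihood test when homozygous libraries were set against wild type (all tested genes 0.00%, 0 of 16574). The same count was 0 of 38 for heterozygous against wild type (0.00%), and 0 of 38 for homozygous against heterozygous (0.00%). DESeq2 also gave 0 of the members. These counts of 0 do not show that P450 genes were unchanged, because the edgeR test called no gene at all, those of the deleted cluster included. Taar6 had a log2 fold change of -7.41 (SE 0.83) in homozygous against wild type with an adjusted p of 0.173 from edgeR, and 0 of the 4 tested Taar genes passed. DESeq2 called 3 of these 4 in that comparison and 2 between homozygous and heterozygous. At an unadjusted p under 0.05 with edgeR there were 2 members in homozygous against wild type (5.26%, all genes 3.02%), 1 when heterozygous and wild type were compared (2.63%, all genes 2.24%) and 1 between homozygous and heterozygous (2.63%, all genes 0.561%). With DESeq2, which tested 72 members, these numbers were 2 (2.78%, all genes 2.93%), 1 (1.39%, all genes 2.28%) and 1 (1.39%, all genes 0.556%).

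The median log2 fold change of the 38 members was -0.036 in homozygous against wild type, beside 0.015 over all tested genes, and 22 members (57.9%) were lower, beside 47.2% of all tested genes. It was -0.14 in heterozygous against wild type, beside 0.0018, with 25 (65.8%) lower, beside 49.6%. Between homozygous and heterozygous libraries it was 0.069, beside 0.0062, with 13 (34.2%) lower, beside 48.2%. With the level of Xist as a covariate the first was -0.32 and the second -0.43. Within library set 1 alone the first was -0.30 and within set 2 it was 0.018. With library totals in place of TMM the median between homozygous and heterozygous libraries turned to -0.016, while the median of all genes moved by -0.099, and in homozygous against wild type the median was -0.15 and that of all genes moved by -0.11. The comparisons share libraries and are not independent of each other. The SE of a log2 fold change ranged from 0.13 for Cyp2j6 to 0.90 for Cyp27b1 in homozygous against wild type, with a median of 0.34.

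The 4 highest genes had no unadjusted p under 0.05 with all 11 libraries in the fit. In homozygous against wild type these were -0.030 (SE 0.22) for Cyp2a5, -0.25 (SE 0.30) for Cyp2g1, -0.24 (SE 0.33) for Cyp2f2 and -0.17 (SE 0.27) for Cyp1a2, and in heterozygous against wild type -0.092 (SE 0.22), -0.16 (SE 0.30), -0.37 (SE 0.33) and 0.010 (SE 0.27), in the same order of genes. Between homozygous and heterozygous libraries they were 0.062 (SE 0.21), -0.089 (SE 0.28), 0.12 (SE 0.31) and -0.18 (SE 0.25). When 1 library was left out, that of Cyp2f2 in this comparison was 0.0025 to 0.49. The means were 1894 ± 440 (SD, n = 3), 1777 ± 146 (n = 4) and 1856 ± 433 CPM (n = 4) for Cyp2a5 in wild type, heterozygous and homozygous libraries. For Cyp2g1 they were 915 ± 248, 821 ± 157 and 772 ± 296 CPM. The difference of Cyp2f2 in heterozygous against wild type depended on single libraries. It was -0.75 without heterozygous replicate 4 (unadjusted p 0.0131 and adjusted p 0.998 from edgeR), where 4 of 38 members were under 0.05 (10.5%, all genes 3.24%), -0.60 without wild type replicate 3 and -0.016 without wild type replicate 1. Cyp2g1 in homozygous against wild type was -0.72 within library set 1 (unadjusted p 0.0384 and adjusted p 0.712 from edgeR) and -0.032 within set 2. With the replicate block in a fit of these 2 genotypes it was -0.51 (unadjusted p 0.0337 and adjusted p 0.740 from edgeR). It was -0.47 to -0.099 when 1 library was left out and -0.74 to -0.032 over all alternatives. In heterozygous against wild type Cyp2g1 was -0.63 to -0.010 over all alternatives. In bulk tissue fewer cells of a type and less RNA per cell cannot be told apart.

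Cyp7b1, the oxysterol 7-alpha-hydroxylase, was at 5.56, 7.70 and 6.78 CPM in wild type, at 3.81, 4.16, 4.45 and 5.14 CPM in heterozygous and at 4.80, 5.67, 4.91 and 3.61 CPM in homozygous libraries. All heterozygous libraries were below all wild type libraries, and homozygous replicate 2 was above the lowest of them. That overlap rests on the scaling of homozygous replicate 2, where Cyp7b1 was at 4.29 CPM of the plain library total, against 5.74 in the lowest wild type library, and at 5.78 against 5.75 CPM with Rn45s left out of the totals. The log2 fold change was -0.61 (SE 0.22) in heterozygous against wild type, with an unadjusted p of 0.0178 and an adjusted p of 1.0 from edgeR's quasi-likelihood test. In homozygous against wild type it was -0.49 (SE 0.22), with an unadjusted p of 0.0455 and an adjusted p of 0.996 from the same edgeR test. In the heterozygous against wild type comparison 2 of 38 members, Cyp7b1 and Cyp2r1, had ranges that did not overlap, which is 5.26% beside 2.51% of all tested genes. In homozygous against wild type there were 0 such members (all genes 4.99%), or 2, Cyp2r1 and Cyp7b1, with library totals in place of TMM (all genes 3.63%). There were 0 in homozygous against heterozygous (all genes 0.597%).

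Cyp2r1 was at 1.02, 1.12 and 0.969 CPM in wild type, at 0.408, 0.471, 0.758 and 0.856 CPM in heterozygous and at 0.168, 1.09, 0.440 and 0.688 CPM in homozygous libraries. These levels rest on 91 counts in 11 libraries. Its log2 fold change in heterozygous against wild type was -0.76 (SE 0.49).

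Cyp26b1 was at 32.2, 34.7 and 28.5 CPM in wild type, at 39.9, 32.8, 49.1 and 34.4 CPM in heterozygous and at 42.3, 45.2, 32.8 and 49.0 CPM in homozygous libraries. Of the homozygous libraries 3 were above all wild type libraries, and replicate 3 lay among them. With library totals in place of TMM homozygous replicate 2 also lay among them, at 34.1 CPM against 35.4 in the highest wild type library, and with Rn45s left out of the totals it was above them, at 46.0 CPM. The log2 fold change was 0.41 (SE 0.18) in homozygous against wild type, with an unadjusted p of 0.0436 and an adjusted p of 0.996 from edgeR, and 0.29 (SE 0.18) in heterozygous against wild type. Without homozygous replicate 2 the unadjusted p of Cyp26b1 was 0.0991, and with Rn45s left out it was 0.0523. With the replicate number as a block over all genotypes the unadjusted p from edgeR was 0.115 for Cyp26b1 and 0.107 for Cyp7b1. This block left 0 members under 0.05 in place of 2, although same-numbered heterozygous libraries correlated negatively with those of the other genotypes. In each pair of wild type and homozygous libraries of the same number, Cyp26b1 was higher and Cyp7b1 lower in the homozygous library (TMM-scaled CPM). With library totals Cyp26b1 was lower in homozygous replicate 2 than in wild type replicate 2. With the block and only the homozygous and wild type libraries in the fit, 6 of 37 members were under 0.05 (16.2%, all genes 6.31%), 0 of them after adjustment, while 39 of all genes passed the adjusted threshold. All 3 wild type libraries had high Xist, so Xist level and genotype are partly confounded, and with Xist as a covariate the log2 fold change in homozygous against wild type was 0.60 for Cyp26b1 and -0.48 for Cyp7b1.

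Cyp2a4 was the member with the largest difference, and that difference sat in 2 libraries. It was at 2.69, 5.37 and 2.34 CPM in wild type, at 1.16, 3.29, 3.03 and 2.03 CPM in heterozygous and at 3.11, 1.96, 15.4 and 12.4 CPM in homozygous libraries. Homozygous replicates 3 and 4 were above the other 9 libraries, and homozygous replicates 1 and 2 lay among them. The log2 fold change was 1.80 (SE 0.61) in homozygous against heterozygous, with an unadjusted p of 0.0126 and an adjusted p of 1.0 from edgeR, and 1.25 (SE 0.65) in homozygous against wild type. Within library set 1 it was 0.010 and -0.66, and within set 2, which holds both of the high libraries and a single wild type library, it was 2.63 and 2.54. Without homozygous replicate 3 the first was 1.30, with an unadjusted p of 0.0555, which left 0 members under 0.05 in that comparison.

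The counts of Cyp2a4 in these libraries were 210 and 144, beside 37 and 18 in homozygous replicates 1 and 2. As a share of the counts of the Cyp2a4 and Cyp2a5 pair this was 0.715% (95% Wilson interval 0.625% to 0.818%) in homozygous replicate 3 and 0.535% (0.455% to 0.629%) in replicate 4. In the other libraries the share ran from 0.0677% to 0.385%, the latter in wild type replicate 2 (0.303% to 0.488%). These intervals cover counting error only. With both genes summed to 1 feature, the homozygous against wild type log2 fold change was -0.026. No member then had an unadjusted p under 0.05 from edgeR in homozygous against heterozygous. Because Cyp2a4 gave at most 0.715% of the pair, the sum follows Cyp2a5 and cannot decide how the difference of Cyp2a4 arose. The stretch of exon 2 shown with the sequences, where the genes differ at 3 of 60 bases, was chosen for having the most differences.

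**Figure D3:**
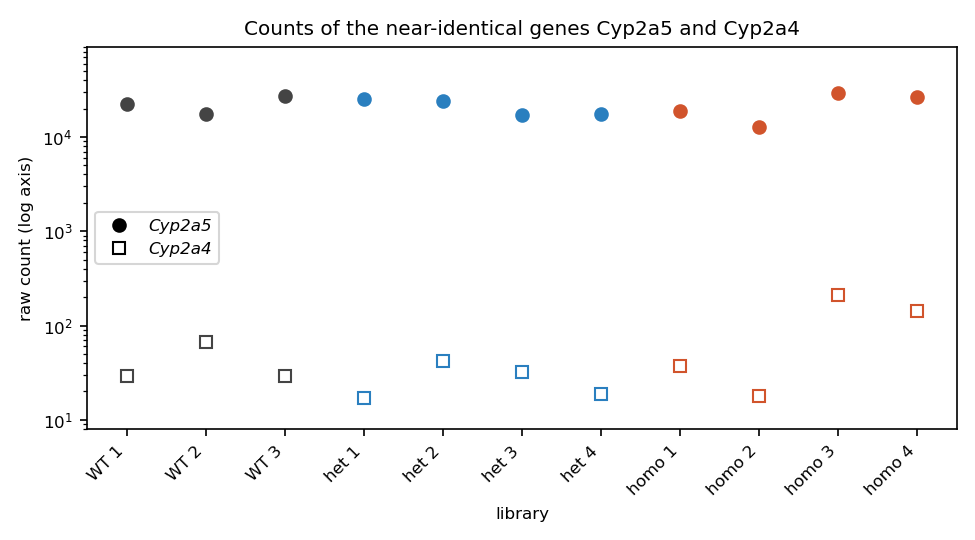
Raw counts of Cyp2a5 (filled circles) and Cyp2a4 (open squares) in each library, on a log axis, with colour by genotype (grey wild type, blue heterozygous, orange homozygous). Cyp2a5 stays between 12907 and 29159 counts, and Cyp2a4 has 210 and 144 counts in homozygous replicates 3 and 4.

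The other members among the lowest unadjusted p of a comparison were not under 0.05 in the edgeR fit of all 11 libraries. Under some alternatives Cyp1a1, Cyp4f18 and Cyp2w1 were. Cyp4f18, of the neutrophil leukotriene pathway, had a log2 fold change of 0.52 (SE 0.30) in homozygous against wild type and 0.34 (SE 0.28) against heterozygous. Cyp1a1 had -0.43 (SE 0.28) in heterozygous against wild type. Cyp2t4 had 0.61 (SE 0.52) and Cyp2w1 0.37 (SE 0.32) between homozygous and heterozygous libraries. Of 10 redox partner genes, 10 genes of heme synthesis and breakdown and 7 receptor genes, 0 had an adjusted p under 0.05 with edgeR in any comparison, and 0 were under an unadjusted 0.05. Their median log2 fold changes in homozygous against wild type were 0.074, 0.029 and 0.18.

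**Figure D4:**
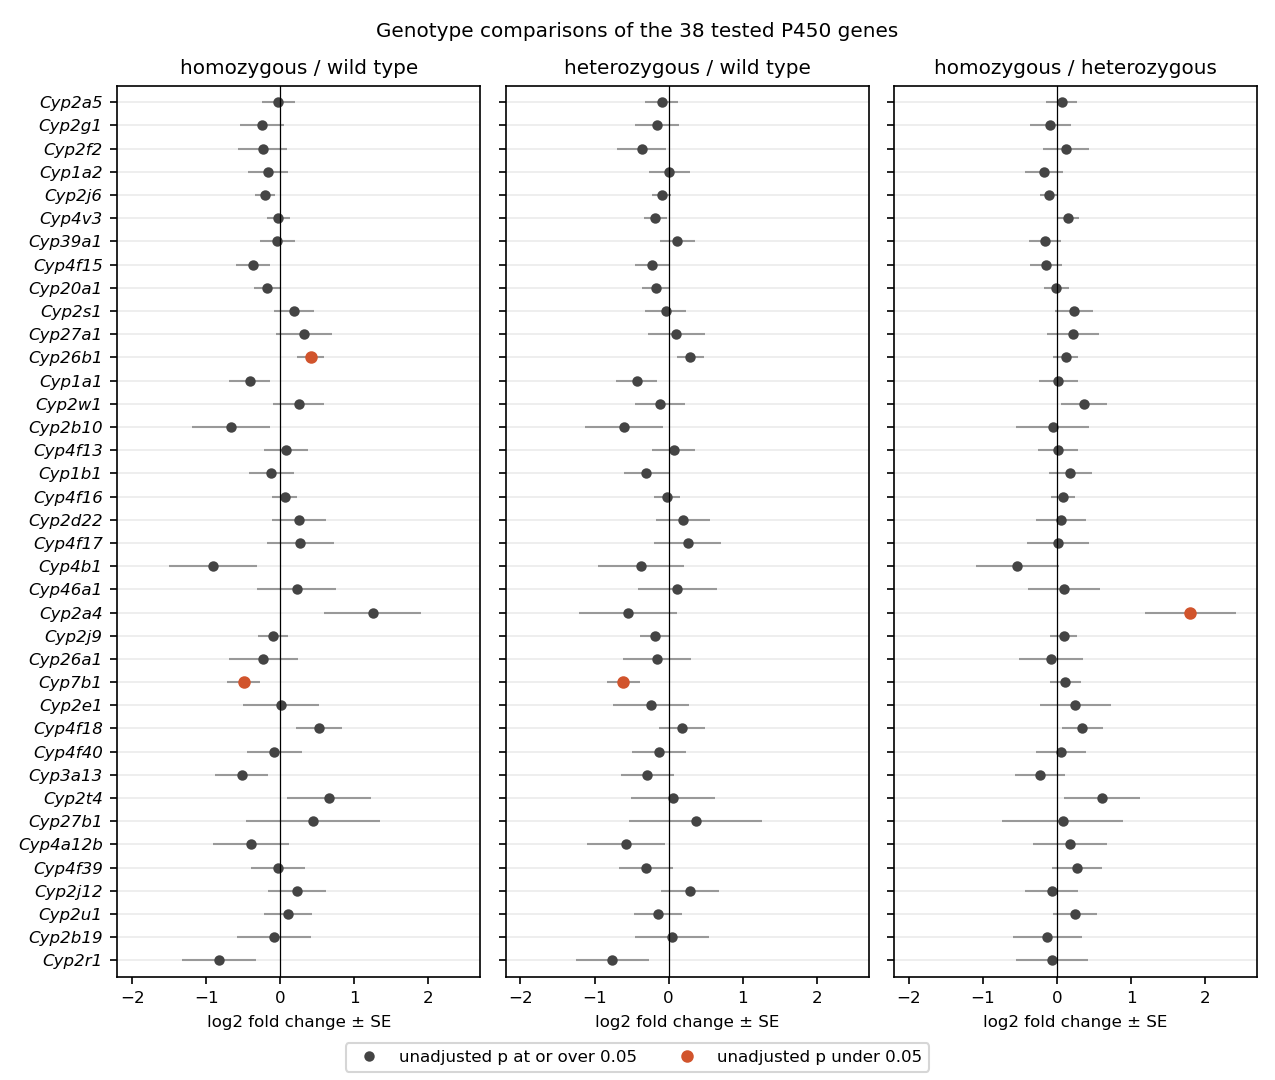
Log2 fold change ± SE of the 38 tested P450 genes in the 3 genotype comparisons (edgeR, 11 libraries), in order of level from the top. Points in orange had an unadjusted p under 0.05 (Cyp26b1 and Cyp7b1, Cyp7b1, and Cyp2a4), and 0 passed the adjusted threshold.

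Several members differed between libraries of the same genotype, and not all in the same libraries. Cyp27b1 was at 0.284 to 0.673 CPM in the 6 libraries of set 1 and at 2.27 to 3.61 CPM in the 5 of set 2. Cyp46a1, the cholesterol 24-hydroxylase of neurons, was at 6.21 to 8.90 CPM in set 1 and at 16.6 to 23.6 CPM in set 2. Cyp4f17 was at 8.13 to 10.0 and at 17.5 to 23.1 CPM. In all, 9 of 38 members (23.7%) were higher in set 2 with ranges that did not overlap, beside 16.0% of all tested genes, and 0 were lower, beside 10.9%. The other 6 were Cyp26a1, Cyp27a1, Cyp2d22, Cyp2t4, Cyp4f13 and Cyp4f16. The sets were defined from all genes, these included, so the counts are a description without a test. Of 11 summed marker lists, 2 had ranges that did not overlap between the sets. The 5 markers of respiratory ciliated cells summed to 489 to 698 CPM in set 1 and 332 to 438 CPM in set 2. Of these, Foxj1 overlapped between the sets. Ccdc39 was highest in wild type replicate 3 and heterozygous replicate 2, both of set 2, at 91.4 and 78.4 CPM. The 4 endothelial markers summed to 234 to 293 CPM in set 1 and 142 to 208 CPM in set 2. Kdr and Flt1 overlapped between the sets, and none of these genes was at 0. Meg3, an imprinted long noncoding RNA, was at 218 to 517 CPM in set 1 and 1212 to 1528 CPM in set 2. The labels do not name what separates the sets, and the part of these cells in the P450 levels was not tested.

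Another pattern separated libraries within set 1. Cyp2b10 was at 25.5 and 17.5 CPM in wild type replicates 1 and 2 and at 24.6 CPM in heterozygous replicate 4, and at 6.25 to 13.3 CPM in the other 8 libraries. Cyp4b1, an enzyme of lung and nasal tissue, was at 17.1, 15.2 and 24.4 CPM in the same libraries and at 3.36 to 10.3 CPM in the others. Cyp2f2 was at 1036 and 967 CPM in wild type replicate 1 and heterozygous replicate 4, above all others, whereas wild type replicate 2, at 674 CPM, lay below homozygous replicate 2, at 757 CPM. Without TMM that order turned, to 688 and 572 CPM of the plain library total, and with Rn45s left out of the totals it held, at 689 and 771 CPM. In the same 3 libraries Bpifb9b, a secreted protein of Bowman's glands, was at 22591, 14341 and 25189 CPM, and at 2979 to 10999 CPM in the others. The 7 Bowman's gland markers together summed to 6958 to 27794 CPM in wild type, 6609 to 30505 CPM in heterozygous and 4447 to 14521 CPM in homozygous libraries, and none was at 0. Of the 7, Bpifb9b and Bpifb9a were above the other 8 libraries in all 3, and they gave 78.9% to 96.1% of the sum. The other 5 did not set these libraries apart, and without the Bpifb9 genes the sum was 909 to 1182 CPM in the 3 and 675 to 1286 CPM in the others. Sox9, Sox10 and Krt18 were highest in homozygous replicate 2. The part of gland content in these P450 levels was not tested.

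Cyp2g1, Cyp2a5 and Cyp1a2 had another profile and were lowest or next to lowest in homozygous replicate 2, at 505, 1408 and 40.2 CPM. That library also had the lowest level of Cbr2, a carbonyl reductase of sustentacular cells, at 920 CPM, against 1029 to 2162 CPM in the others. The 8 sustentacular markers that are not P450 genes summed to 2446 to 3116 CPM in wild type, 2133 to 2771 CPM in heterozygous and 1811 to 3240 CPM in homozygous libraries, and none was at 0. Of these 8, Cbr2, Gpx6, Ugt2a1 and Muc2 were lowest in homozygous replicate 2, Sox2 was highest there at 143 CPM, and Ermn, Sult1c1 and Gstm2 lay in between. The part of Rn45s or of sustentacular content in these P450 levels was not tested. The ratio of Cyp1a2 to Cyp2g1 was 0.0644 to 0.0997. That of Cyp2f2 to Cyp2g1 ran from 0.438 in heterozygous replicate 2 to 1.5 in homozygous replicate 2. It was 0.438 to 0.638 in the libraries of set 2 and 0.722 to 1.5 in those of set 1.

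**Figure D5:**
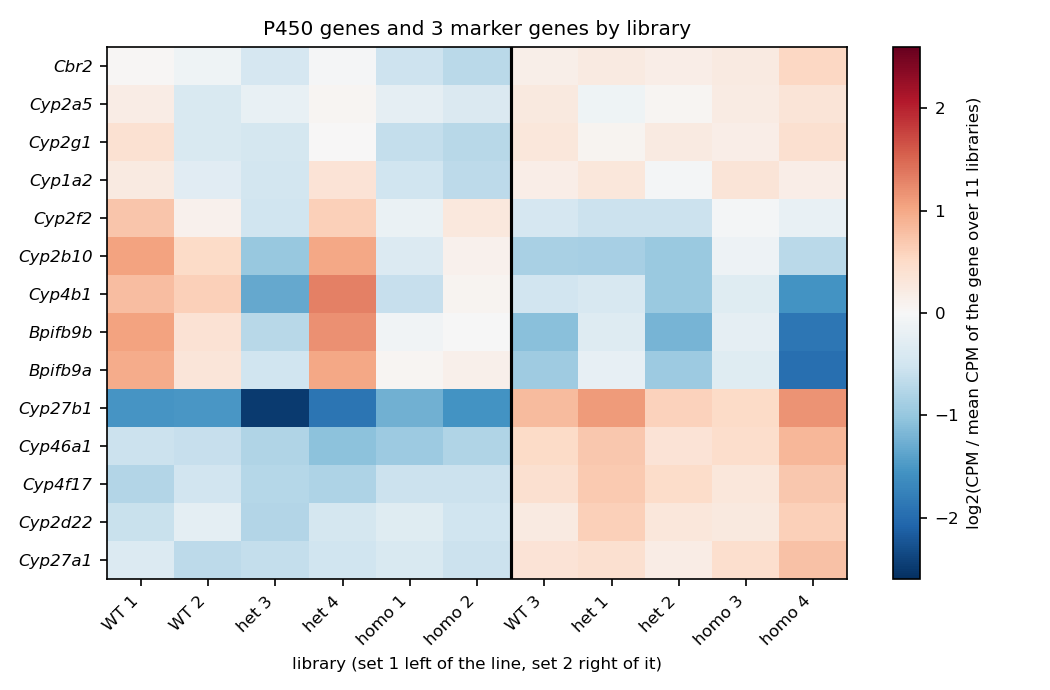
Level of 11 P450 genes, Cbr2 (sustentacular cells), Bpifb9b and Bpifb9a (Bowman's glands) in each library as log2 of CPM over the mean CPM of the gene in 11 libraries, with red for higher and blue for lower. The libraries are ordered by set, set 1 on the left of the line, and the genes were chosen after their values were seen. The markers shown do not stand for their whole lists. The other 5 Bowman's gland markers did not set wild type replicates 1 and 2 and heterozygous replicate 4 apart. Sox2, another sustentacular marker, was highest in homozygous replicate 2. Cyp27b1, Cyp46a1, Cyp4f17, Cyp2d22 and Cyp27a1 are higher in each library of set 2, and Cyp2f2, Cyp2b10 and Cyp4b1 are high in wild type replicate 1 and heterozygous replicate 4.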

How the data were processed

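Whole MOE RNA was sequenced after polyA selection with a directional kit. Per the submitters' processing notes the authors trimmed reads with Trimmomatic (version 0.36), aligned them to mm10 with HISAT2 (version 2.1.0), counted them with featureCounts (Subread version 1.6.2) and used DESeq2 (version 1.20.0). Which annotation and strand setting they used, and how reads with several positions were counted, is not given in the sources used here. The deposited raw counts per gene, not normalized, were analysed. A deposited table of normalised values was not used. Without a known strand setting, reads of antisense partners cannot be told apart.

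Depth was 9239866 to 14632525 counts per library. Genotypes were compared in edgeR (4.0.16, under R 4.3.3) after TMM scaling, with filterByExpr by genotype and a quasi-likelihood fit over all 11 libraries. Benjamini-Hochberg adjustment was over 16574 genes (threshold 0.05). The procedure was also run on simulated data that held neither the library sets nor the uneven Rn45s load. That run cannot show how well it detects changes in these libraries. SE are the log2 fold change over the root of the F-statistic. Levels are TMM-scaled CPM (library totals over the genes that passed the filter), divided by the exon length in GENCODE M21 for comparisons between genes. Symbols matched this annotation for 23309 entries. Windows of 51 bases and identities were computed with Biopython (version 1.88). Alternatives were RLE scaling, DESeq2 (version 1.42.0), no or a stricter filter, leave-one-out, a replicate block, covariates for library set and Xist, and pairwise fits. Fits within a set, library totals without TMM, Rn45s left out, a block with only homozygous and wild type libraries, Cyp2a4 and Cyp2a5 summed, and leaving out the 4 libraries highest in muscle markers were added after seeing the data.

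Named were the 15 highest members per kb, the 4 lowest unadjusted p in each comparison, the chromosome 7 cluster, the highest member of each role, and others chosen after their values were seen. Members, lists and tests were chosen with earlier results of these data known. As a check of the pairing, deviations from the genotype means correlated at 0.33, 0.42 and 0.40 between wild type and homozygous libraries of the same number, so the numbers were taken to pair them, though 3 pairs of other numbers in the same library set reached 0.24 to 0.47 and the numbers cannot be told apart from the set. Same-numbered heterozygous libraries correlated negatively with both (-0.19 to -0.58). The labels do not say what a number marks.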

Additional observations from a re-analysis of the deposited data

Results flagged for a closer look

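In heterozygous replicate 4, Cyp2b10 was at 24.6 CPM and Cyp2f2 at 967 CPM, each farther from the other 3 heterozygous libraries than Dixon's 95% limit allows. The gap to the next library, over the group's range, was 0.974 for Cyp2b10 and 0.975 for Cyp2f2. These were 2 of 44 groups examined (22 genes in the heterozygous and homozygous libraries), and chance flags about 1 in 20. Bpifb9b was at 25189 CPM in the same library, and the skeletal muscle markers summed to 1469 CPM. Their part in both values was not tested.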

How the results depend on the processing

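No P450 gene passed the adjusted threshold under any alternative, and neither did a tested Taar gene except with DESeq2. Of 606 alternative values of 24 log2 fold changes of named genes, 571 kept their direction and 35 reversed, and 12 of the 24 never reversed. Over all genes, the count past the threshold was 0 in all 3 comparisons and became 8, 3 and 2 with DESeq2 (the first comparison being homozygous and the second heterozygous against wild type, and the third homozygous against heterozygous), 2 and 2 in the first and second comparison within library set 2, and 39 in the first with the replicate block and only its libraries. The cause was not tested. At an unadjusted p under 0.05, the members numbered 0 to 6, 0 to 4 and 0 to 4 over the alternatives, beside 1.41% to 10.6%, 1.36% to 4.55% and 0.236% to 2.16% of all genes.

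Reversals within set 1 were -0.66 for Cyp2a4 in homozygous against wild type, 0.0066 for Cyp2a5 and -0.0037 for Cyp1a2 in heterozygous against wild type, and -0.31 for Cyp2w1, -0.23 for Cyp2a5 and -0.098 for Cyp2f2 in homozygous against heterozygous. Within set 2 they were -0.065 for Cyp4f18, 0.27 for Cyp2f2 and 0.052 for Cyp1a2 in the first comparison, -0.049 for Cyp1a2 in the second, and 0.12 for Cyp2g1 and 0.10 for Cyp1a2 in the third. Without the 4 libraries highest in muscle markers, 0 of which were wild type, they were 0.022 for Cyp2a5 in the first, -0.11 for Cyp1a2 in the second and 0.15 for Cyp2g1 in the third. Cyp1a2 in the second comparison also turned to -0.00091 without a filter, -0.073 with the replicate block, -0.058 with the set and -0.48 with Xist as a covariate. With library totals in place of TMM it was -0.0030, and Cyp2a5 was -0.017 in the third. Leaving out 1 library gave -0.21 to 0.091 for Cyp2a5 and -0.48 to 0.11 for Cyp2f2 in the first comparison, -0.27 to 0.028 for Cyp2a5 and -0.14 to 0.15 for Cyp1a2 in the second, and -0.060 to 0.17 for Cyp2a5 and -0.31 to 0.062 for Cyp2g1 in the third. Within set 2 the lone wild type library was assumed to vary like the others. The replicate block changed no adjusted call of a member.

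The 34 members with a count that did not pass the filter on low counts were not tested. The 15 highest members were shared by 13 under the longest transcript and by 15 under RLE scaling, and by 14 or 15 without 1 library.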
